A study of Ovis aries with 2 samples.

Results

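The region described here is a segment of sheep chromosome 20 that holds every locus of 200 bp or more whose deposited start lies between 22000000 and 34000000. Its members are defined by position and length alone, although the segment itself was picked with earlier results of these data known. In the thin-tailed library 396 of 30931 loci of that length were members, and in the fat-tailed library 403 of 32501. The rest of chromosome 20, with 481 and 514 loci, served for comparison.

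The data come from poly(A) RNA sequencing of subcutaneous fat of Iranian native sheep, with 1 library read from its title as thin-tailed and 1 as fat-tailed. The design text speaks of duplicates, of which a single library for each tail type is described here. The labels give the same husbandry for both: weaning at 90 days, the same unrestricted diet for 120 days, and slaughter at 7 months without any treatment. Thin- and fat-tailed breeds differ in how much fat they store in the tail, and the question put was which adipose transcripts differ between them. The word Fat in a library title could also name the tissue, so the direction of each difference depends on reading it as the tail type. The sources used here name no breed for either library and do not say whether it holds RNA of 1 animal or of a pool. With single libraries there is no replicate check of any difference below, and no p-value was computed.

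This stretch was singled out because the major histocompatibility complex (MHC) of sheep lies on chromosome 20. The MHC holds many immune genes. Its class I molecules display peptides made inside a cell to cytotoxic T cells and are present on nearly all nucleated cells, fat cells included. Class II molecules display peptides taken up from outside and are found mainly on macrophages, dendritic cells and B cells, some of which live in adipose tissue. The class III region encodes complement components and cytokines such as tumour necrosis factor, together with many genes of general function. Class I and class II genes form families of similar copies that vary strongly between animals.

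Whether the members are MHC genes could not be checked by name. Neither table names genes, and 0 of the 12439 Ensembl identifiers carried by loci of 200 bp or more occurred in the RefSeq gene table for sheep (assembly ARS-UI_Ramb_v3.0). That table places all 27 of the class III genes it holds, from a list of 30, on chromosome 20. It also places there all 17 listed framework genes of the class I region and 5 of 6 listed genes of class I antigen processing. Of 14 listed class II symbols it holds 3, with 1 of them on chromosome 20. Since the sources used here name no genome build for the deposited positions, these gene positions were not carried over. Some of the listed genes may therefore lie in the rest of chromosome 20 and not in the segment. Loci are therefore named by start and end on chromosome 20 as deposited, counted from 1, those of the thin-tailed table where the tables differ. Defining markers of fat cells or of immune cells could not be examined for the same reason.

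The values are FPKM (fragments divided by transcript length and by library size), each with a deposited interval that is given here in brackets. Of a pair of values, the thin-tailed one comes first. Total depth is unknown. The median member above 0 had 45.4 thin-tailed or 63.2 fat-tailed fragments, as implied by the width of those intervals. This takes each interval as 2 standard deviations either side of a pure fragment count, which was not checked. Implied fragments are therefore not read counts. Fewer cells of a type and less RNA per cell cannot be told apart in such bulk libraries. The tables give no strand, so overlapping loci of opposite strands could share fragments.

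The segment was crowded in its middle and sparse at its ends. Of the thin-tailed members, 79 started between 26 and 27 Mb and 68 between 27 and 28 Mb, while 3 started between 23 and 24 Mb. The fat-tailed numbers were 76, 66 and 3. From 24 to 28 Mb, 130 of 189 thin-tailed and 125 of 188 fat-tailed members had at least 1 FPKM. From 22 to 24 Mb this held for 2 of 18 and 1 of 18, and from 31 to 34 Mb for 12 of 38 and 13 of 38. The most abundant members lay in the same middle part: of the members with at least 100 FPKM, 24 of 26 (thin-tailed) and 26 of 30 (fat-tailed) started between 24 and 28 Mb.

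Members were listed at 0 more often than loci elsewhere on the chromosome. A value of 0 was deposited for 158 thin-tailed members (39.9%) and 167 fat-tailed ones (41.4%). In the rest of chromosome 20 it was 20.4% and 21.6% of the loci, and over all loci of 200 bp or more 26.9% and 27.4%. Most of the members at 0, 150 and 156 in the libraries, carried an Ensembl identifier. Such loci made up 51.3% and 50.9% of the members, 26.0% and 27.2% of the rest, and 34.1% and 35.2% of all loci. Of the members with an Ensembl identifier, 150 of 203 and 156 of 205 were at 0. Of all loci with one, 7490 of 10539 and 8034 of 11432 were. Such a 0 need not mean that no transcript was present, and it is given only as listed at 0. The stretch from 28 to 31 Mb held 79 thin-tailed and 86 fat-tailed zeros. Its loci were short, with a median span of 1111 bp and 963 bp against 5936 bp and 5599 bp from 24 to 28 Mb. A group of very similar length stood out there. Of the loci spanning 900 to 1000 bp, 23 of 24 in the thin-tailed and 23 of 26 in the fat-tailed table were listed at 0. Of those spanning 300 to 500 bp, 18 of 33 and 19 of 39 were. Most loci of both classes carried an Ensembl identifier, 23 and 24 in the longer class and 31 and 30 in the shorter. These length classes were chosen after the spans were seen. Shares at 0 for the same lengths outside the segment are not given here.

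**Figure D1:**
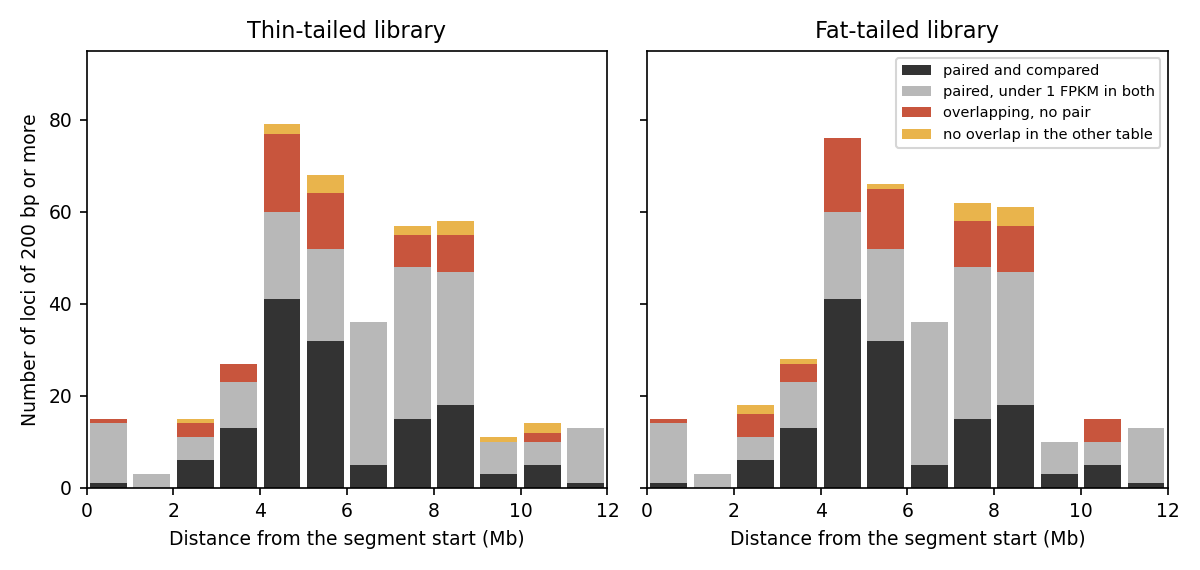
Number of members starting in each 1 Mb step, against the distance of the step from the segment start, for the thin-tailed (left) and the fat-tailed (right) library. Colours give how each locus was matched to the other table; the 4 to 5 Mb step is the tallest, with 79 and 76 members, and the 6 to 7 Mb step holds 36 in each, of which 5 were compared.

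Because each library had been assembled on its own, a partner for each locus was sought by position. Loci were paired where both chose each other as best match and shared at least 80% of the length of either. In the segment 327 pairs formed, and 187 of them were below 1 FPKM in both libraries. The ratio of the other 140 was taken as fat-tailed over thin-tailed FPKM, after adding 1 FPKM to each, and put on the log2 scale. Ratios of low values are understated on it. A log2 ratio of 1 or more, or of -1 or less, was counted as 2-fold higher or lower.

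Higher and lower members were about equally many, whereas lower loci led in the rest of the chromosome. Of the 140 compared members 18 (12.9%) were 2-fold higher and 19 (13.6%) were 2-fold lower in the fat-tailed library. Over all 13030 compared loci of the genome the shares were 8.22% higher and 14.7% lower, and in the 234 compared loci of the rest of chromosome 20 they were 8.97% and 15.4%. The share of lower members thus lay near both backgrounds and that of higher members above them, an excess that could not be tested without replicates. It nearly vanished among loci of 1000 bp or more, where 11 of 112 members and 20 of 209 loci of the rest were higher. Among loci that overlap no other the counts were also close, 6 of 71 and 13 of 168. At 4-fold, 4 of 140 members and 9 of 234 loci of the rest were higher. When ratios were centred on the median of all compared loci, 25 members were higher and 14 lower, and in the rest of the chromosome 28 and 29, so that lower loci no longer led there. With the FPKM totals of the libraries made equal, 0 were higher and 126 lower; loci under 200 bp hold 94.2% (thin-tailed) and 99.4% (fat-tailed) of that total, and the scaling puts the median of all compared loci at -2.27.

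The median log2 ratio of the members was 0.08, with quartiles at -0.64 and 0.63. In the rest of chromosome 20 it was -0.13, with quartiles at -0.58 and 0.39, and over the genome -0.12. The members were thus spread more widely, with an interquartile range of 1.26 on the log2 scale against 0.97 and 0.99. The median compared member stood at 9.99 FPKM thin-tailed and 10.1 FPKM fat-tailed, and the median locus of the rest at 9.32 and 8.12. By implied fragments the member median was -0.027 and that of the rest -0.10, so the sign of the small positive median did not hold in that measure.

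Deposited intervals lay apart for 69 members (49.3%), close to the 50.6% of all compared loci and below the 54.3% in the rest of the chromosome. Among the 2-fold higher members 14 of 18 had intervals that lay apart, and among the lower ones 14 of 19. In the rest of chromosome 20 this held for 19 of 21 and 36 of 36. Over the genome it held for 994 of 1071 and 1774 of 1910, so both shares were lower in the segment. The higher members whose intervals overlapped were the 4 listed at 0 in the thin-tailed library. Among the lower ones they included members above 0 in both libraries. Of the 14 higher members above 0 in both libraries, implied fragments pointed the same way for 10 and differed 2-fold for 8. Of the 14 lower ones they did so for 12 and 8. Over the genome they pointed the same way for 674 of 936 higher and 1487 of 1670 lower loci, and differed 2-fold for 448 and 1158. Since the fragments are derived from the deposited FPKM, they are no independent evidence.

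**Figure D2:**
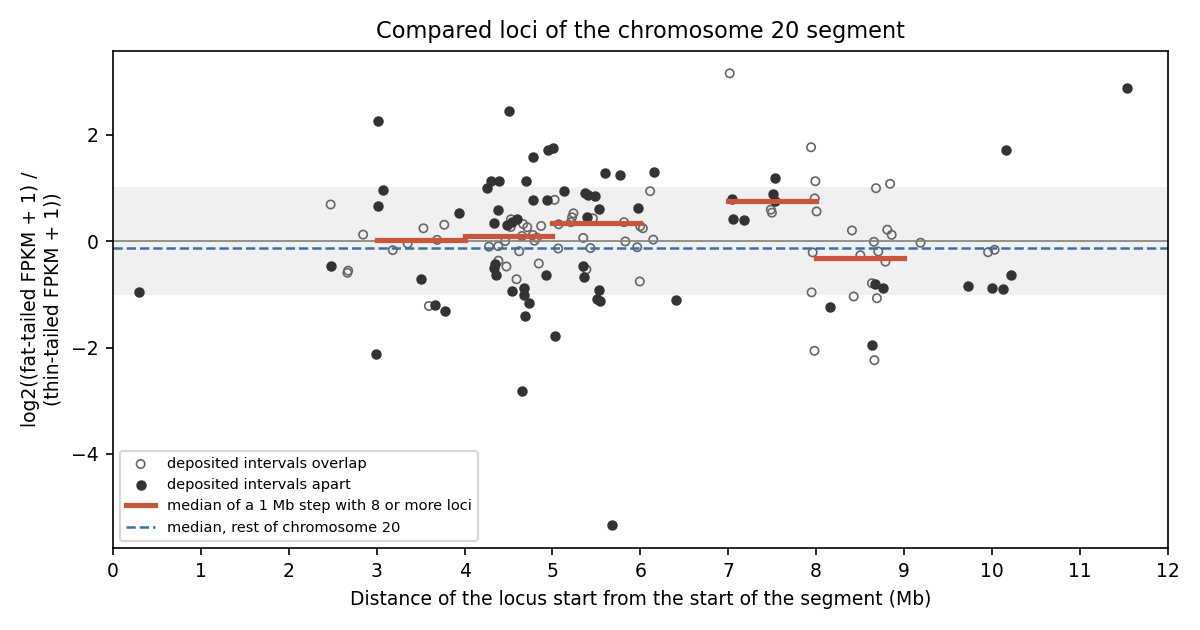
The log2 ratio of each of the 140 compared members against the distance of its start from the segment start; filled points have deposited intervals that lie apart, the grey band marks less than 2-fold, and red bars give the median of each 1 Mb step with at least 8 loci. The step medians lie between -0.32 and 0.76, and the dashed line is the median of -0.13 for the rest of chromosome 20.

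Along the segment, 5 of the 1 Mb steps held at least 8 compared members. Their medians were 0.02 from 25 to 26 Mb (13 loci), 0.10 from 26 to 27 Mb (41 loci), 0.34 from 27 to 28 Mb (32 loci), 0.76 from 29 to 30 Mb (15 loci) and -0.32 from 30 to 31 Mb (18 loci). In the rest of the chromosome 10 such steps had medians from -0.58 to 0.24, so 2 steps of the segment lay above that range and none below it. The remaining steps held 0 to 6 compared members each. By implied fragments the medians from 27 to 28 Mb and from 29 to 30 Mb were smaller, at 0.085 and 0.41. Without pairs at 0, the median by FPKM from 29 to 30 Mb was 0.59.

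The step with the highest median was a run of moderate differences in neighbouring loci. From 29016884 to 29942732 all 10 compared members in a row were higher in the fat-tailed library, with log2 ratios from 0.39 to 3.16. For 6 of them the deposited intervals lay apart, and 2 were listed at 0 in the thin-tailed library. Several loci of the run overlap another locus of their table, so they are not all separate. That from 29535075 to 29543141 lies within that from 29532967 to 29551350. The most abundant of the run, from 29179938 to 29180801, read 288.8 FPKM (274.2 to 303.4) thin-tailed against 379.3 FPKM (362.2 to 396.3) fat-tailed, a 1.31-fold difference. The longest locus without an overlapping neighbour, from 29042789 to 29057419, read 15.5 and 27.7 FPKM. The adjoining step from 30 to 31 Mb held the longest run in the other direction, 7 compared loci in a row that were lower, from 30427378 to 30818603. Their log2 ratios lay between -2.24 and -0.01, and the intervals of only 2 of them lay apart. Its most abundant locus, from 30668084 to 30818603, read 107.5 FPKM (96.0 to 119.0) thin-tailed against 61.0 FPKM (52.4 to 69.6) fat-tailed. Implied fragments differed in the same direction for 8 of the 10 loci of the first run and for 4 of the 7 of the second. In each run 2 loci were at 0 in 1 library and so had no ratio of fragments. Run lengths outside the segment are not given here, so the lengths of both runs have no background.

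The 4 members with the highest mean level were all higher in the fat-tailed library, and all 4 turned lower when the FPKM totals of all loci were made equal. The locus with the highest mean, from 25939960 to 25940307 (ENSOARG00000008765), read 2328 FPKM (2246 to 2411) thin-tailed against 3355 FPKM (3257 to 3453) fat-tailed. It spans 348 bp, overlaps no other locus, and differed 1.44-fold. Next came the locus from 26502010 to 26515796, at 547.3 FPKM (518.4 to 576.3) against 2974 FPKM (2865 to 3082), a 5.43-fold difference that was 1.07 on the log2 scale by implied fragments. The one that followed, from 27766028, belongs to a group of loci with a common name. The fourth, a small locus from 25015205 to 25015535 (ENSOARG00000023715) had 175.6 FPKM (146.5 to 204.6) in the thin-tailed library, and the fat-tailed value was 847.7 (785.1 to 910.4). Its 4.83-fold difference was matched by implied fragments, at 146 and 733, and it too overlaps no other locus. The neighbour that ends just before it, from 24996933 to 25014896, went the other way, at 47.9 FPKM (41.4 to 54.4) against 10.2 FPKM (9.45 to 11.1), while its implied fragments numbered 218 and 649. A long locus from 25687644 to 25888178 read 166.2 and 169.1 FPKM, with overlapping intervals. In the sparse steps the most abundant compared loci were that from 22292508 to 22292815, at 89.3 and 45.8 FPKM, that from 24476964 to 24477235, at 70.8 and 115 FPKM, and that from 28146597 to 28151449, at 43.6 and 44.5 FPKM. Beyond 31 Mb they were the locus from 31956210 to 31966766, at 13.2 and 11.3 FPKM, and that from 32004328 to 32008924, at 82.3 and 44.2 FPKM. Of these 5 loci, the intervals of those starting at 22292508 and 32004328 lay apart.

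**Figure D3:**
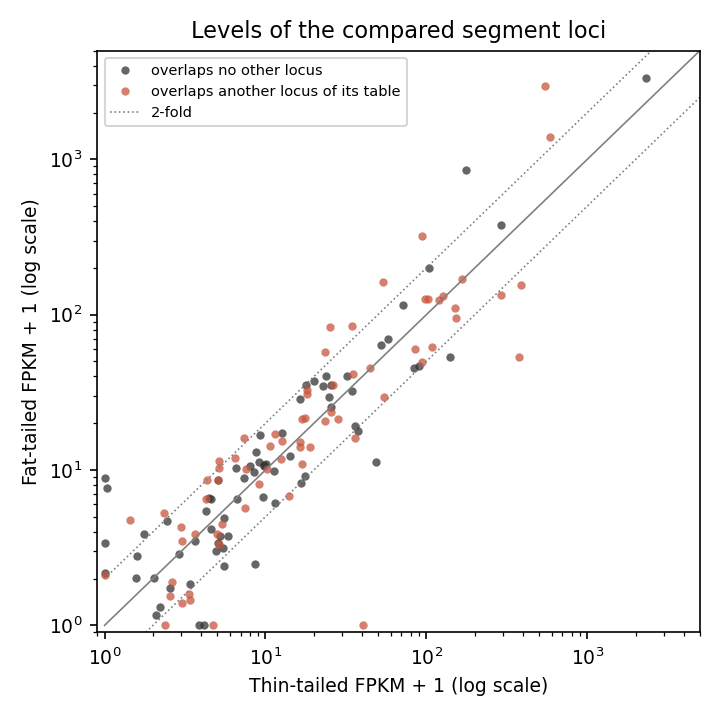
FPKM + 1 in the fat-tailed against the thin-tailed library for the 140 compared members, both axes on a log scale; the solid line is equality and the dotted lines are 2-fold. Most points lie between the dotted lines, where 103 members fall, and 2 of the 3 most abundant members outside them overlap another locus of their own table.

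The lowest ratio among members above 0 in both libraries was that of the locus from 26649010 to 26662672. It read 375.5 FPKM (362.5 to 388.6) thin-tailed against 52.3 FPKM (47.9 to 56.7) fat-tailed, 7.17-fold lower, on 3323 and 567 implied fragments. The fat-tailed table held a further assembled locus on the same ground, from 26648946 to 26660630 at 50.4 FPKM, which formed no pair. Its part in the difference was not tested. The locus from 25772826 to 25783626 read 386.8 FPKM (361.1 to 412.5) against 154.9 FPKM (144.4 to 165.5), 2.5-fold lower by FPKM on nearly equal implied fragments, 907 and 868. From 27544969 to 27580609 the values were 291.3 FPKM (276.0 to 306.7) against 133.2 FPKM (124.9 to 141.4), 2.19-fold lower. A less abundant locus from 26737689 to 26757393 read 34.9 FPKM (31.7 to 38.0) against 14.9 FPKM (12.8 to 17.1), with implied fragments of 493 and 189. In the lower range, the locus from 27025901 to 27032602 read 7.62 FPKM (4.43 to 10.8) against 1.5 FPKM (0.565 to 2.43), on 23 and 10 fragments. Of the 8 lowest ratios, 3 differed 2-fold in the same direction by implied fragments, those of the loci starting at 26649010, 26737689 and 27025901. The loci starting at 26683708 and 27505614, which read 139.6 and 52.4 FPKM and 36.5 and 16.7 FPKM, complete the 8 together with that starting at 24996933.

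At the other end stood the 8 highest ratios, 3 of them those of the loci starting at 25015205, 26502010 and 27596843. The locus from 33531127 to 33536464 was listed at 0.0342 FPKM (0 to 0.0737) thin-tailed against 6.66 FPKM (4.8 to 8.52) fat-tailed, on 3 and 51 implied fragments. It overlaps no other locus and was the only compared member between 33 and 34 Mb. From 28159283 to 28159746 the values were 22.5 FPKM (16.3 to 28.7) against 56.6 FPKM (47.0 to 66.2), with fragments in the same proportion, 53 and 139. A very short locus from 27001112 to 27001355 read 93.1 FPKM (50.4 to 135.8) against 317.9 FPKM (224.0 to 411.8). Within the same crowded ground, the locus from 26949229 to 27021966 read 24.2 FPKM (20.3 to 28.1) against 82.1 FPKM (34.5 to 129.6). Its implied fragments went the other way, at 154 and 12. The same held for the locus from 26784237 to 26795250, at 52.8 and 160.9 FPKM on 995 and 481 fragments.

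**Figure D4:**
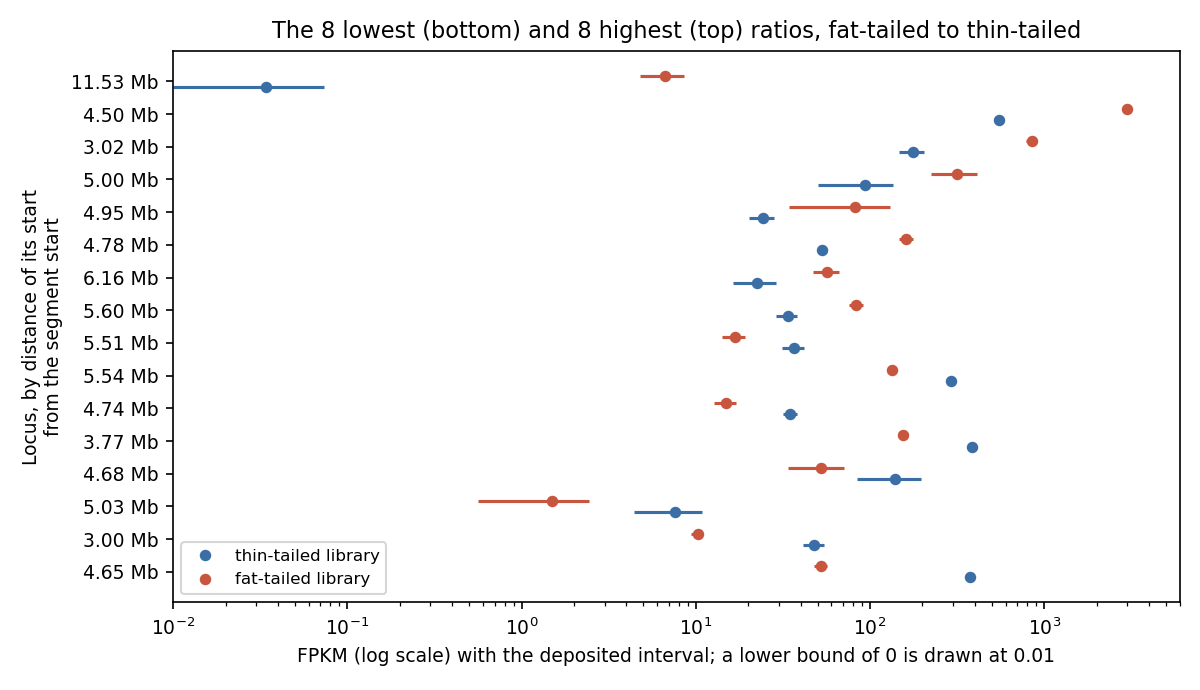
FPKM in the thin-tailed and the fat-tailed library, on a log scale with deposited intervals as bars, for the 8 highest and 8 lowest ratios among members with at least 5 FPKM in 1 library, values above 0 in both and intervals apart. The selection requires separated intervals, so the picture shows the size of the extremes, from 375.5 against 52.3 FPKM at the bottom to 0.0342 against 6.66 FPKM at the top.

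Several loci that share a single assembled name made up a second feature of the segment. A name that another locus also carried was found for 11 thin-tailed members (2.78%), in 5 groups, and for 18 fat-tailed members (4.47%), in 8 groups. In the rest of chromosome 20 the shares were 0.416% and 0.778%, and over all loci of 200 bp or more 1.09% and 0.911%. With these loci left out, an alternative chosen after the data were seen, 15 of 129 compared members were higher and 16 lower. One group joined the same 3 loci in both tables. The first of them, from 27596843 to 27600002, read 33.6 FPKM (29.0 to 38.3) thin-tailed against 83.2 FPKM (75.6 to 90.9) fat-tailed. The third, from 27766028 to 27769637, read 584.4 FPKM (555.1 to 613.7) against 1385 FPKM (1322 to 1448). Between them the second, from 27675151 to 27678490, read 39.5 FPKM (34.9 to 44.1) according to the thin-tailed table, whereas the fat-tailed table listed it at 0. The outer loci of the group thus differed 2.47-fold and 2.37-fold, with the fat-tailed value the larger, and the middle one went the other way. By implied fragments the third differed less, at 0.27 on the log2 scale. A further group of 3, in the fat-tailed table, joined the locus from 24996933, at 10.2 FPKM, to those starting at 24871463 and 24932493, at 186.7 and 0.181 FPKM.

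The ground of that group was assembled differently in the libraries. In the fat-tailed table a locus from 27674820 to 27766297, 91478 bp long, covered the middle member and part of the third, and it was listed at 10779 FPKM (10203 to 11355), the highest value of any member. The thin-tailed table held 3 loci of about 170 kb there, from 27598030, 27598358 and 27599578, at 7.80, 5.98 and 58.4 FPKM, and a locus from 27738811 to 27747601 at 294.9 FPKM (141.2 to 448.6). None of these formed a pair. The value of 10779 FPKM rested on 1400 implied fragments, fewer than the 1918 behind the 1385 FPKM of its neighbour. How fragments were divided among these loci was not tested.

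Another group joined loci of very different ratio. The member from 26502010 to 26515796, with its 5.43-fold difference, shared its name in both tables with the locus from 26463053 to 26475301. The latter read 9.19 FPKM (8.0 to 10.4) thin-tailed against 9.21 FPKM (7.99 to 10.4) fat-tailed. Beside them the locus from 26488703 to 26495689 read 101.3 FPKM (92.8 to 109.9) against 124.7 FPKM (117.7 to 131.7). Neither neighbour differed by as much. In the thin-tailed table an unpaired locus from 26476288 to 26525317, at 36.7 FPKM, covered the whole of the 5.43-fold locus.

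Overlap within a table was common in the segment. Of the compared members 69 (49.3%) overlapped another locus of their own table, against 28.2% in the rest of chromosome 20 and 32.9% over the genome. These held 12 of the 18 higher and 11 of the 19 lower calls, so 17.4% of them were higher and 15.9% lower. Of overlapping loci in the rest of chromosome 20, 12.1% were higher and 13.6% lower. Over the genome the shares were 10.5% and 15.1%, so that of lower members lay near the genome's. Among the 71 members that overlap no other, 6 were higher and 8 lower, with a median log2 ratio of 0.12. The corresponding 168 loci of the rest had 13 higher and 27 lower and a median of -0.16.

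Members were shorter than other loci of the chromosome, and the ratios differed between length classes. The median span of a compared member was 5813 bp, against 14075 bp in the rest. Members spanning 20000 bp or more stood at a median log2 ratio of -0.07 (20 loci), and such loci of the rest at -0.35 (93 loci). From 1000 bp to under 5000 bp the medians were 0.05 and 0.04, over 38 loci each, and from 5000 bp to under 20000 bp they were 0.12 over 55 and 0.01 over 78. Below 1000 bp they stood at 0.54 over 27 members and -0.10 over 25 loci of the rest, while the genome had 0.11 over 1649. The segment and the rest were thus furthest apart in the shortest and the longest class. By level, members with a mean of at least 100 FPKM had a median of 0.33 (18 loci, 5 higher and 3 lower) and those below 5 FPKM -0.22 (46 loci, 8 higher and 9 lower). In the rest of the chromosome these classes had 0.12 over 23 loci and -0.26 over 84.

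**Figure D5:**
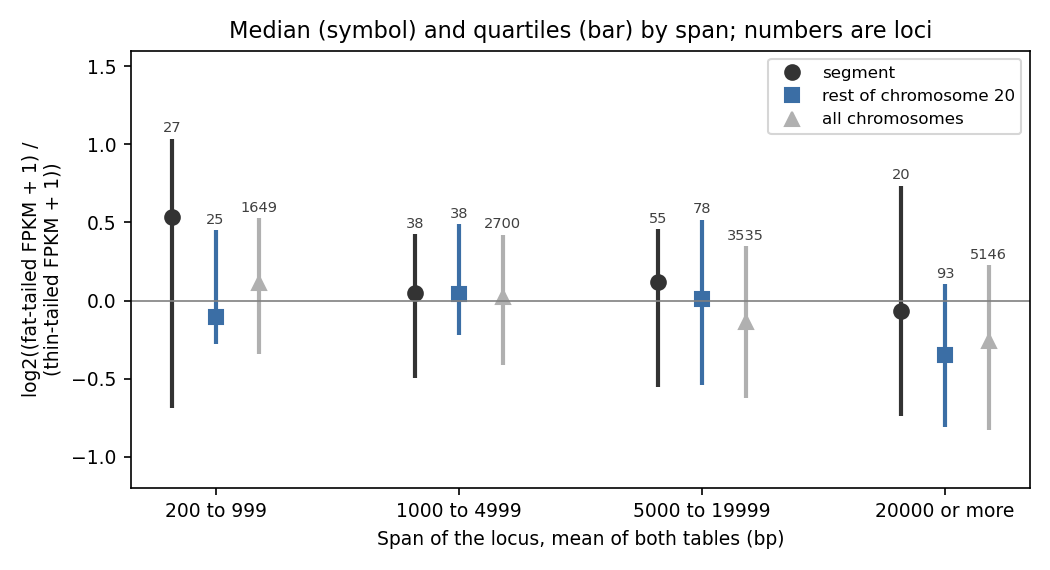
Median log2 ratio (symbols) with quartiles (bars) by span of the locus for the segment, the rest of chromosome 20 and all chromosomes; numbers above the bars are loci. The segment lies highest in the class under 1000 bp, at 0.54, while from 1000 bp to under 5000 bp the medians are 0.05, 0.04 and 0.02.

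A value of 0 in just 1 library decided 9 of the compared members. In the thin-tailed library 4 were listed at 0. They span 284 to 470 bp, and the highest of them in the fat-tailed library, from 29016884 to 29017167, stood at 7.91 FPKM with an interval reaching down to 0. All 4 intervals included 0, and all 4 loci counted as 2-fold higher. The fat-tailed zeros numbered 5, all counted as 2-fold lower. Besides the middle locus of the group described above, they were the loci from 30152364 to 30172179 at 1.37 FPKM (1.04 to 1.70) in the thin-tailed library, from 30638070 to 30638762 at 2.88 FPKM (0.304 to 5.45), from 30662997 to 30663332 at 3.71 FPKM and from 29980761 to 29981093 at 3.17 FPKM. The last 2 had intervals that reached 0. Without these 9 pairs, 14 of 131 members were higher and 14 lower. With such pairs left out of the rest of chromosome 20, 18 of 225 loci were higher and 30 lower. Among the 234 compared loci there, 3 thin-tailed and 6 fat-tailed values were 0. Over the 13030 compared loci of the genome these numbers were 135 and 240. Such zeros thus made up a larger share of the compared members than of either background.

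Many members with at least 1 FPKM had no partner in the other table. In the thin-tailed library 69 members (17.4%) formed no pair, of which 54 overlapped a locus of the other table and 15 overlapped none. In the fat-tailed library 76 (18.9%) formed none, 64 with and 12 without an overlap. These shares were below the 23.9% and 28.8% of the rest of chromosome 20 and the 21.6% and 25.4% of all loci, but the segment held many paired loci at 0. Members without any overlap made up 3.79% and 2.98%, against 3.12% and 4.86% in the rest and 3.86% and 4.41% over the genome. Among loci of at least 1 FPKM, 33.2% and 36.0% of the members had no partner. In the rest 32.9% and 40.8% had none, and over the genome 33.7% and 40.0%.

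Some of the highest values of the segment stood in these unpaired loci. In the thin-tailed library the locus from 25507802 to 25568209 was listed at 1418 FPKM, with an interval from 764 to 2073 and only 19 implied fragments. Both loci of the fat-tailed table that it overlapped had partners of their own, at 0.554 and 40.4 FPKM. Another thin-tailed locus, from 26943408 to 27019529, stood at 463.6 FPKM (439.4 to 487.8) and overlapped 8 loci of the fat-tailed table, which read 0 to 317.9 FPKM. A simpler case was the locus from 26719379 to 26722894, at 327.8 FPKM (310.3 to 345.4) in the thin-tailed library. It enclosed the fat-tailed locus from 26720467 to 26722702, at 346.7 FPKM (328.3 to 365.1), which covered 63.6% of its length. The intervals of these loci overlapped, although they failed the overlap rule. Elsewhere the intervals lay apart: the fat-tailed locus from 32061329 to 32061573 read 292.6 FPKM (230.5 to 354.6) within a thin-tailed locus from 32061197 at 42.9 FPKM (31.9 to 53.8). Their implied fragments were closer, 61 for the thin-tailed and 89 for the fat-tailed locus. The fat-tailed locus from 24916084 to 24916297, at 328.4 FPKM, lay inside a thin-tailed locus of 48035 bp at 138.5 FPKM.

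Where the other table had no locus at all, members were short and mostly low. The 15 thin-tailed ones had a median span of 684 bp and a median of 2.46 FPKM, and the 12 fat-tailed ones 719 bp and 3.07 FPKM. The interval of every one of them lay above 0. The highest in the fat-tailed library, from 25352772 to 25352984, stood apart at 663.9 FPKM (518.0 to 809.7) on 83 implied fragments, with the next at 9.22 FPKM. In the thin-tailed library the highest was the locus from 26829860 to 26830107, at 38.8 FPKM (15.4 to 62.2), followed by that from 32003503 to 32003785, at 24.9 FPKM (11.6 to 38.3). Both are shorter than 300 bp. A locus absent from 1 table may still have been transcribed in that library.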

How the data were processed

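Per the file headers, the authors deposited for each library an FPKM value per locus with a lower and an upper bound, in a tracking table of the Cufflinks and Cuffdiff kind. FastQC, TopHat and Cuffdiff are listed per the submitters' processing notes, without version or order. The sources used here do not give the build, the annotation or any scaling between libraries. Starts are deposited counting from 0 (33 and 31 mitochondrial loci matched RefSeq genes only after adding 1), so 1 was added.

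Loci of at least 200 bp were matched between the libraries by mutual best reciprocal overlap of at least 0.8. Ties, 73 over the genome, were dropped, and pairs with at least 1 FPKM in 1 library were compared, with a pseudocount of 1 FPKM. Intervals lie apart when they share no value; a 0 has the interval 0 to 0. Implied fragments are (2 × FPKM/upper half-width) squared. The pairing was tested on simulated tables whose loci did not overlap one another. That test could not show how well overlapping loci, common in the segment, were paired. Python 3.11.15, numpy 2.4.6, pandas 2.3.3 and matplotlib 3.10.9 were used.

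The named loci are, among compared members, the most abundant of each 1 Mb step, the 10 with the highest mean, the 8 largest ratios in each direction where intervals lie apart, both values exceed 0 and 1 reaches 5 FPKM, and up to 5 per direction at 0. Among unpaired members they are the 4 highest of each kind and library. Other loci were named as neighbours after their values were seen. The segment and the lists were chosen with earlier results of these data known; membership uses position and length only. Lists of class I, II and III genes and of cell type markers could not be measured without gene names. No test was possible with 1 library per group. Alternatives covered pseudocount, filters, overlap, span, scaling, zeros, threshold, segment bounds and implied fragments.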

Additional observations from a re-analysis of the deposited data

Results flagged for a closer look

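Loci under 200 bp were left out of every comparison above. In the segment the tables held 38 and 37 of them, and 37 in each were listed at 0. The exception, in the thin-tailed library, lay from 26975581 to 26975764 and was listed at 712 FPKM (393 to 1030), so its interval lay above 0. It was singled out because it is a signal in loci that no comparison used. It lies within the ground from 26943408 to 27019529, where the thin-tailed library had an unpaired locus of 76122 bp at 463.6 FPKM. Whether these values share fragments was not tested.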

How the results depend on the processing

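No paired analysis was possible because the study's groups were represented by single libraries. Leaving out loci that share a name was chosen after the data were seen; it moved no count by over 1.5 times. In what follows the segment comes first and the rest of chromosome 20 second. With a pseudocount of 5 FPKM, 10 and 10 loci were higher and 6 and 8 lower; at 4-fold, 4 and 9 were higher and 5 and 4 lower; with equal FPKM totals, 0 and 0 were higher and 126 and 216 lower, with medians of -2.10 and -2.28. For loci that overlap no other, 6 of 71 and 13 of 168 were higher, and 8 and 27 were lower. With at least 5 FPKM in 1 library, 11 and 18 were lower and the segment median was 0.26. A span of at least 1000 bp left 11 of 112 and 20 of 209 higher, and an overlap of 0.5 gave 23 of 159 and 32 of 286. Centring gave medians of 0.20 and -0.012, implied fragments gave -0.027 in the segment, and without a filter on low values the median of both was 0. The segment median exceeded that of the rest under 15 of 16 alternatives, the exception being the unfiltered loci, and it was above 0 under 13. Centring moves both medians alike and could not change their order. Equal totals rescale all fat-tailed values alike and could hardly do so. The alternatives also share most of their loci, so this tally is no measure of certainty. The share of members without a partner was 12.6% (thin-tailed) and 14.1% (fat-tailed) at an overlap of 0.5, 24.7% and 26.1% at 0.95, and 33.2% and 36.0% among loci of at least 1 FPKM. Fewer loci are selected by construction under the stricter filters; for the other shifts the cause was not tested.

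With equal FPKM totals 13 of the 35 named compared loci changed direction. Those that had differed 2-fold went to log2 ratios of -0.91 (start 25015205), -0.75 (26502010), -1.53 (26784237), -1.34 (26949229), -1.40 (27001112), -1.78 (27596843), -1.94 (27766028) and -1.71 (28159283). The others went to -2.41 (24476964), -3.10 (25687644), -2.66 (25939960), -2.93 (28146597) and -2.77 (29179938). By implied fragments 5 of 26 did: 1.57 (24996933), -0.041 (25687644), 0.35 (26683708), -1.05 (26784237) and -3.69 (26949229). With equal totals of loci of 200 bp or more, 2 did, both with ratios near 0. Interval width limits single values: the interval reached, at the median, 29.7% of the value above it for thin-tailed and 25.2% for fat-tailed members above 0.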
